A study of Mus musculus with 16 samples.

Results

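AP-1 is a family of dimeric transcription factors, and 10 of its genes were followed here in mouse macrophages exposed to platelets: Fos, Fosb, Fosl1 and Fosl2 of the Fos family, Jun, Junb and Jund of the Jun family, and the related genes Atf3, Maff and Batf. They were taken by symbol from a table of 46320 genes, by a list that was drawn up with earlier results of these data known. All 10 were found and all 10 passed the filter on low counts, which kept 15610 genes. RNA was sequenced from macrophages grown from the marrow of C57BL6/J mice, with medium conditioned by L929 cells supplying the growth factor M-CSF for 7 days. The cells were plated at 400000 per well, kept for 4 hours in 0.5% serum and then treated for 4 hours. The 4 groups of 4 libraries received PBS (the vehicle), thrombin alone, resting platelets, or platelets activated with thrombin, and platelets came from the blood of C57BL6/J mice. All 4 groups share the genotype, the culture and the serum starvation, and none carries a transgene or deletion. The protocol gives 0.01 U/mL thrombin, both alone and for platelet activation, but the thrombin samples themselves are labelled with 0.1 U/mL. The labels read here state neither the age or sex of the mice, nor the number of platelets added, nor whether the platelets were removed before RNA was extracted. They also do not say that the replicates came from separate animals or cultures, so a p-value reflects how far these libraries scatter, some of which may be technical scatter.

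AP-1 proteins carry a basic region that contacts DNA and a leucine zipper through which they pair. Fos proteins need a partner, usually a Jun protein, whereas Jun proteins can also pair with each other. The dimers bind the TPA response element TGACTCA and, in some pairings, the cAMP response element TGACGTCA. Fos, Fosb, Junb and Atf3 are immediate early genes, which signalling through MAP kinases, calcium or cAMP switches on without new protein synthesis. In macrophages AP-1 takes part in differentiation and in the induction of cytokine genes, and Atf3 is known as a repressor of inflammatory genes.

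The label of the cells fitted their transcripts: the 13 macrophage identity genes held 1.78% to 2.21% of the counts in every library and none was at 0. Lyz2 gave the largest part of that share, while Cd163 and Marco were scarce in every group. Totals ranged from 22.6 to 30.6 M counts (M for mega), and those of the activated platelet group (28.0 to 30.6 M) lay above those of the vehicle group (22.6 to 27.7 M). Libraries with the same replicate number deviated together in all 4 groups. Replicate 1 also stood apart by the Y-linked gene Ddx3y, at 85.1 to 93.2 CPM (counts per M counts of the library) against at most 0.27 in replicates 2 to 4, so it did not come from the same animals. Platelet transcripts moved with the groups: without Thbs1 and Pf4, which macrophages also express, the other 19 platelet markers held 0.00417% to 0.00531% of counts in vehicle and 0.00480% to 0.00570% in thrombin libraries. The same markers held 0.00592% to 0.00827% with resting platelets and 0.0204% to 0.0272% with activated platelets. Gp9 was at 0 in every vehicle and thrombin library, and Alox12 was at 0 in every thrombin library. The 10 erythroid markers held at most 1.77e-05% of counts in vehicle and 0.000789% to 0.00142% with activated platelets, with Slc4a1 and Ahsp at 0 in every library. The 13 lymphocyte markers held 0.00185% to 0.00330% in vehicle and 0.000753% to 0.00131% with activated platelets, where Cd3e, Cd3g, Cd3d and Cd8a were at 0. The 10 stromal markers held a larger share, 0.252% to 0.520% in vehicle and 0.203% to 0.445% with activated platelets. The 12 neutrophil markers held 0.00617% to 0.0104% in vehicle and 0.00864% to 0.0171% with activated platelets. The part of platelet and other admixed RNA in the results that follow was not tested.

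The sequences just before the transcription starts are given for the members that changed most against vehicle, Fos, Fosb, Fosl2 and Atf3, and for Junb and Jun, the Jun family gene that rose and the namesake of that family. Each line holds the last 150 bases before the RefSeq start on GRCm38.p6, 5′ to 3′ on the strand of the gene. Capitals mark TGACG, the core of the cAMP response element (CGTCA when it lies on the other strand), and TGACATCA, the variant element of the Jun promoter.
Fos, chr12:85473740-85473889, forward strand: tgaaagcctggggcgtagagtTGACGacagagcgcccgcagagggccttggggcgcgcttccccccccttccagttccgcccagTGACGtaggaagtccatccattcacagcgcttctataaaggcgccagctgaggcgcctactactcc
Fosb, chr7:19310046-19310195, reverse strand: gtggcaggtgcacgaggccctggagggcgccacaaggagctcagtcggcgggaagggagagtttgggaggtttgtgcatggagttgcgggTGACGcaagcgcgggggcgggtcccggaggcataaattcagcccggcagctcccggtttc
Fosl2, chr5:32136322-32136471, forward strand: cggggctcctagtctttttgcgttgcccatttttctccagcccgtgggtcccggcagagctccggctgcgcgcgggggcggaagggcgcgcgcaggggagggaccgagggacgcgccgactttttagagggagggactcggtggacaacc
Jun, chr4:95052223-95052372, reverse strand: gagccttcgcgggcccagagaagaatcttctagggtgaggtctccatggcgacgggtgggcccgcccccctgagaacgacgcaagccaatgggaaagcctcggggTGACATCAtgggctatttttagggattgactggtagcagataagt
Junb, chr8:84978749-84978898, reverse strand: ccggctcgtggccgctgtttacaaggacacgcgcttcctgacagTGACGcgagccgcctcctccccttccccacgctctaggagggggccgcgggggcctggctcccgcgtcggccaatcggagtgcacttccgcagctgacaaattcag
Atf3, chr1:191183334-191183483, reverse strand: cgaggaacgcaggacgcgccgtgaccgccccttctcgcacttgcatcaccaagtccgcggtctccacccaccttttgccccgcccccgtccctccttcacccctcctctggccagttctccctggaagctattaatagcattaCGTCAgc

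Matches were searched on both strands in the 250 bases before each of 11 starts, which belong to 9 of the 10 members (Maff has 3 starts). TGACG, which also lies within every TGACGTCA, was found before 17.8% of 32851 RefSeq starts in windows of the same length, TGACGTCA before 1.55%, TGACATCA before 2.93% and TGACTCA before 4.46%. The Fos window held TGACG at 129 to 125 and at 66 to 62 bases before the start, and a TATAAA, which 12.4% of windows hold, at 33 to 28 bases. Fosb held TGACG at 60 to 56 bases, Junb at 106 to 102 bases and Batf at 98 to 94 bases. Atf3 held CGTCA at 7 to 3 bases, and Jun held TGACATCA at 45 to 38 bases. One of the Maff starts had the whole TGACGTCA at 29 to 22 bases, and another had CGTCA at 122 to 118 and TGACATCA at 45 to 38 bases. The windows of Fosl2, Jund and the remaining Maff start held none of these letters, and no window of a member held TGACTCA or the CArG box, which 1.47% of windows hold. A match describes letters only and was not set against binding data.

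**Figure D1:**
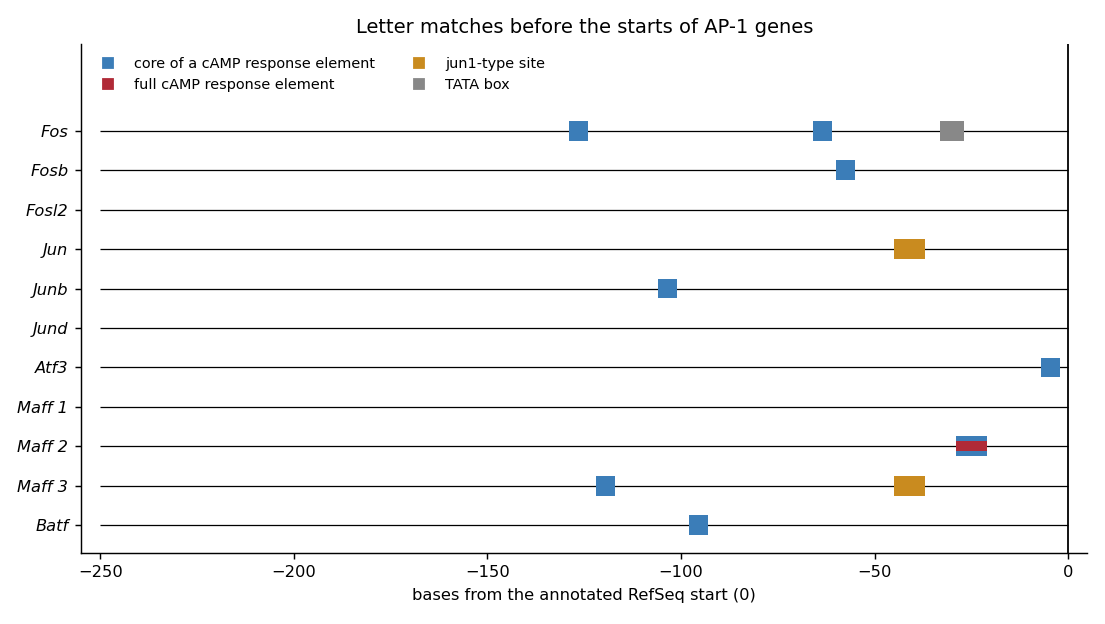
Matches to the searched motifs by distance in bases before the RefSeq transcription start, 1 line per start of the 9 members matched, with colours for the motifs as given in the key and the whole cAMP response element drawn inside its core matches. Fos carries 2 matches to TGACG, while Fosl2, Jund and 1 of the 3 Maff starts carry none of the motifs.

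In vehicle-treated macrophages the members differed widely in level, here as CPM per kilobase of exon, the scale on which genes can be compared. Atf3 stood highest at 151 ± 49.2 (SD, n = 4) CPM per kilobase, followed by Junb at 69.1 ± 12.8. Jund at 39.5 ± 4.11 and Jun at 34.0 ± 1.94 came next, and their libraries overlap. Fos stood at 25.8 ± 1.48 and Fosl2 at 10.5 ± 1.1 CPM per kilobase. The remaining members were scarce, with Batf at 3.75 ± 0.266 and Fosl1 at 3.29 ± 0.295, whose libraries overlap, then Maff at 1.71 ± 0.315 and Fosb at 0.138 ± 0.060. With activated platelets the order was another. Fos (108 ± 8.73) and Junb (107 ± 16.1) led without differing beyond their spread, Atf3 followed at 51.9 ± 16, and Jund (37.1 ± 2.23), Jun (30.1 ± 3.20) and Fosl2 (29.5 ± 4.77) came after it. With resting platelets Atf3 still led at 130 CPM per kilobase, above Junb at 79.7, and Fos at 44.0 had moved past Jund at 37 and Jun at 30.0.

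**Figure D2:**
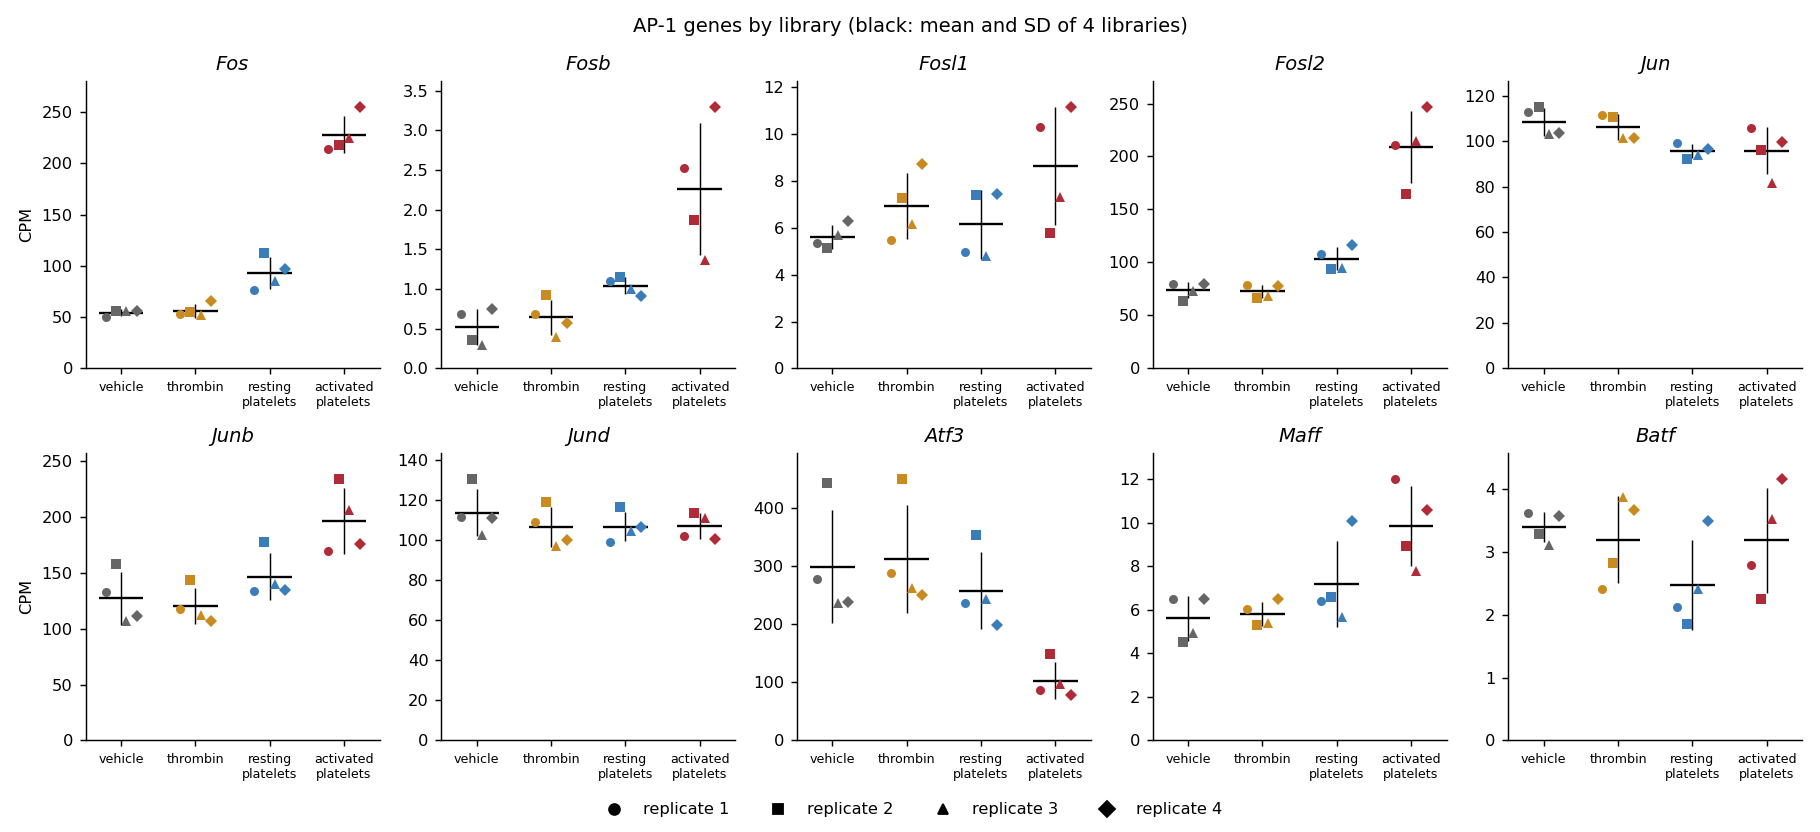
CPM of each of the 10 members in each of the 16 libraries, by group, with a linear axis from 0 for each gene, the group mean as a black horizontal line and its SD as a vertical line. Fos, Fosb, Fosl2, Junb and Maff sit higher in every activated platelet library than in every vehicle library, and Atf3 sits lower.

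Against vehicle, activated platelets raised 6 of the 10 members (Fos, Fosb, Fosl1, Fosl2, Junb and Maff) and lowered 1 (Atf3) at an adjusted p under 0.05 in the quasi-likelihood test of edgeR. Over all 15610 genes tested, 12.2% rose and 13.6% fell in the same comparison. The groups did not overlap for 5 members that were higher and 1 that was lower, where 12.6% of all genes were higher and 13.5% lower without overlap. The median log2 fold change was 0.62 over the 10 members and 0.00 over all genes (-0.00397). Resting platelets raised 2 members, Fos and Fosl2, and lowered none, against 2.07% of all genes higher and 1.32% lower, with a median log2 fold change of 0.17 over the members. Since whole wells were sequenced, a change in the share of cells that express a gene and a change in RNA per cell cannot be told apart. Where replicate numbers were entered as a block, the resting platelet comparison had 8 members past the threshold: Fos, Fosb, Fosl2, Junb and Maff higher, and Jun, Atf3 and Batf lower. In that blocked fit 21.5% of all genes passed.

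**Figure D3:**
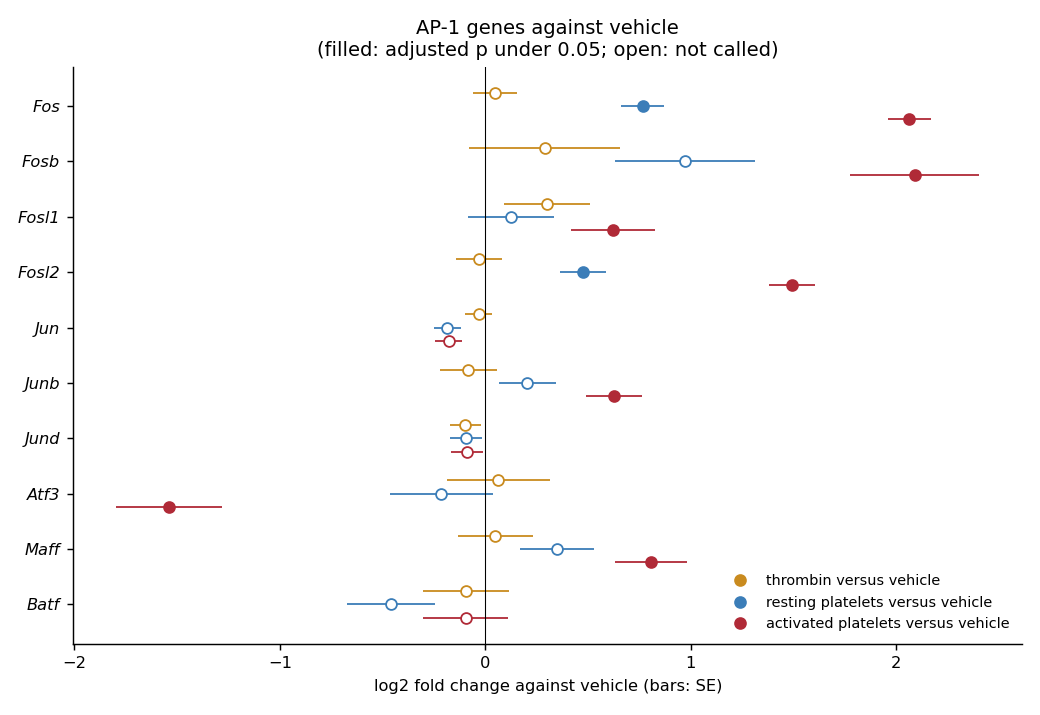
Log2 fold change of each member against vehicle from the edgeR fit, with bars of 1 SE, for thrombin, resting platelets and activated platelets, where filled points have an adjusted p under 0.05 and open points do not. Fos and Fosb reach 2.07 and 2.09 with activated platelets, Atf3 reaches -1.54, and all thrombin points are open.

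Fos (NCBI gene 14281, chr12:85520664-85524048 on GRCm39, forward strand), the best known immediate early gene, showed the smallest p of the family. Its level was 49.8, 56.0, 55.7 and 56.4 CPM in vehicle libraries 1 to 4, 76.5, 112, 84.8 and 97.4 CPM with resting platelets, and 214, 218, 225 and 255 CPM with activated platelets. The 3 groups do not overlap, and the activated platelet libraries all lie above 200 CPM. Fos rose 1.70-fold with resting platelets (log2 0.77 ± 0.10 SE, edgeR adjusted p = 0.000949) and 4.19-fold with activated platelets (log2 2.07 ± 0.11, edgeR adjusted p = 2.04e-09). Activated against resting platelets, the difference was 2.46-fold (edgeR adjusted p = 7.79e-07). Within replicate numbers the ratio of activated platelets to vehicle lay between 3.9 and 4.52, and that of resting platelets between 1.52 and 2.01.

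Fosb (NCBI gene 14282, chr7:19036621-19043970, reverse strand) encodes a close relative of Fos and is induced by many of the same signals. It was the scarcest member, at 0.68, 0.364, 0.293 and 0.749 CPM in vehicle, 1.1, 1.15, 1.01 and 0.91 CPM with resting platelets, and 2.53, 1.87, 1.37 and 3.29 CPM with activated platelets. Here too the 3 groups do not overlap, but the spread within a group is wide relative to the mean. Fosb rose 4.26-fold with activated platelets (log2 2.09 ± 0.31, edgeR adjusted p = 0.000126). With resting platelets its log2 fold change was 0.97 ± 0.34, which did not pass (edgeR adjusted p = 0.127) but did with the replicate block (adjusted p = 0.0138). The 2.17-fold rise from resting to activated platelets (edgeR adjusted p = 0.0144) did not pass without replicate number 1 (adjusted p = 0.115) or number 4 (adjusted p = 0.116).

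Fosl2 (NCBI gene 14284, chr5:32292599-32315184, forward strand) encodes Fra-2, a Fos family protein without the strong activation domain of Fos. Its level was 80.1, 63.4, 73.4 and 79.7 CPM in vehicle, 108, 93.9, 95.1 and 117 CPM with resting platelets, and 211, 164, 214 and 247 CPM with activated platelets. These 3 groups step upward without overlap, and replicate 2 is the lowest library in each of the 4 groups. Fosl2 rose 2.82-fold with activated platelets against vehicle (log2 1.49 ± 0.11, edgeR adjusted p = 9.91e-08) and 2.02-fold against resting platelets (edgeR adjusted p = 1.4e-05). Its 1.39-fold rise with resting platelets (log2 0.48 ± 0.11) was near the threshold (edgeR adjusted p = 0.0299). That call was lost without vehicle replicate 1 (adjusted p = 0.0513), 2 (0.0933) or 3 (0.0548), without resting platelet replicate 1 (0.0930) or 4 (0.0832), without replicate numbers 1 (0.217), 3 (0.0907) or 4 (0.120), and with no filter on low counts (0.0775). The same rise passed with the replicate block (edgeR adjusted p = 7.32e-07), also with a GC correction added to the block (adjusted p = 5.74e-06). Within replicate numbers, resting platelets gave 1.3 to 1.48 times the vehicle level, higher in 4 of 4.

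Fosl1 (NCBI gene 14283, chr19:5497726-5505966, forward strand) encodes Fra-1, which like Fra-2 lacks the strong activation domain, and the gene overlaps Ccdc85b on the other strand. It had 5.33, 5.14, 5.71 and 6.28 CPM in vehicle, 4.96, 7.38, 4.8 and 7.44 CPM with resting platelets, and 10.3, 5.79, 7.33 and 11.1 CPM with activated platelets. The activated platelet libraries overlap the vehicle libraries, and they differ among themselves more than the vehicle libraries do. The 1.54-fold rise with activated platelets (log2 0.62 ± 0.21, edgeR adjusted p = 0.0352) is the least secure of the 7 calls. It was lost without vehicle replicate 1 (adjusted p = 0.0769), 2 (0.0828) or 3 (0.0672), without activated platelet replicate 1 (0.104) or 4 (0.118), and without replicate numbers 1 (0.188), 3 (0.0755) or 4 (0.103). It was also lost with no filter on low counts (adjusted p = 0.0678) and in voom of limma (0.0590). With the replicate block it passed (edgeR adjusted p = 0.00861). With resting platelets the log2 fold change was 0.13 (edgeR adjusted p = 0.818). Activated against resting platelets it was 0.49, which passed with the replicate block (adjusted p = 0.0335) and neither without it (adjusted p = 0.118) nor with a GC correction added to it (adjusted p = 0.0712). That last comparison also passed without activated platelet replicate 2 (adjusted p = 0.0336) or replicate number 2 (adjusted p = 0.0406).

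Among the Jun genes, Junb (NCBI gene 16477, chr8:85703538-85705377, reverse strand), whose protein is a weaker activator than Jun in many settings, was the one that rose. Its level was 133, 158, 107 and 111 CPM in vehicle, 134, 178, 140 and 135 CPM with resting platelets, and 170, 234, 206 and 175 CPM with activated platelets. Replicate 2 was the highest library in each group, and the activated platelet libraries lie above all vehicle libraries but overlap the resting platelet libraries. Junb rose 1.54-fold with activated platelets against vehicle (log2 0.63 ± 0.14, edgeR adjusted p = 0.003), a call lost without replicate number 3 (adjusted p = 0.0512). With resting platelets the log2 fold change was 0.21 ± 0.14 (edgeR adjusted p = 0.454), which passed with the replicate block (adjusted p = 0.0341). A GC correction moved it to 0.33 (edgeR adjusted p = 0.264). The 1.34-fold rise from resting to activated platelets (edgeR adjusted p = 0.0476) was lost without resting platelet replicate 1 (adjusted p = 0.126), 3 (0.109) or 4 (0.107), without activated platelet replicate 2 (0.139) or 3 (0.103), and without replicate numbers 1 (0.180), 3 (0.214) or 4 (0.122). It was also lost with no filter (adjusted p = 0.136), in voom of limma (0.0505), with only the groups compared (0.0607) and with a GC correction (0.0999). It passed with the replicate block, with and without the GC correction.

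Jun (NCBI gene 16476, chr4:94937273-94940459, reverse strand), the gene of the prototype Jun protein, did not rise in any comparison. It had 113, 115, 103 and 104 CPM in vehicle, 99.3, 92.1, 93.9 and 96.7 CPM with resting platelets, and 106, 96.1, 81.8 and 99.8 CPM with activated platelets. Resting platelet libraries all lie below the vehicle libraries, and all 4 replicate numbers are lower with either kind of platelet. The log2 fold change was -0.18 ± 0.07 with resting platelets (edgeR adjusted p = 0.135) and -0.18 ± 0.07 with activated platelets (edgeR adjusted p = 0.058). Both passed with the replicate block (adjusted p = 0.00433 and 0.0016), but with a GC correction added to the block the change with resting platelets did not (adjusted p = 0.0596). The change with activated platelets also passed without activated platelet replicate 1 (adjusted p = 0.0271). Jund (NCBI gene 16478, chr8:71150389-71153265, forward strand), usually a constitutive member, had 114 ± 11.8 CPM in vehicle, 107 ± 7.18 CPM with resting platelets and 107 ± 6.41 CPM with activated platelets. For Jund the 95% interval of the log2 fold change with activated platelets reached from -0.25 to 0.08 (edgeR adjusted p = 0.45), and its deposited values were not whole in 11 of 16 libraries.

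Atf3 (NCBI gene 11910, chr1:190902493-190915530, reverse strand), a stress-induced factor that represses transcription as a homodimer, was the member that fell. Its level was 278, 442, 237 and 238 CPM in vehicle, 236, 352, 243 and 199 CPM with resting platelets, and 86.3, 149, 96.7 and 78.8 CPM with activated platelets. Replicate 2 was the highest library in every group, and the highest activated platelet library lies below the lowest vehicle and resting platelet libraries. Atf3 fell 2.91-fold with activated platelets against vehicle (log2 -1.54 ± 0.26, edgeR adjusted p = 0.000342). It fell 2.51-fold against resting platelets (log2 -1.33 ± 0.26, edgeR adjusted p = 0.0023), a call lost without replicate number 1 (adjusted p = 0.0601). With resting platelets the log2 fold change was -0.21 ± 0.25 (edgeR adjusted p = 0.717), and with the replicate block it passed (adjusted p = 0.00681). Within replicate numbers, activated platelets left 0.311 to 0.408 of the vehicle level.

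**Figure D4:**
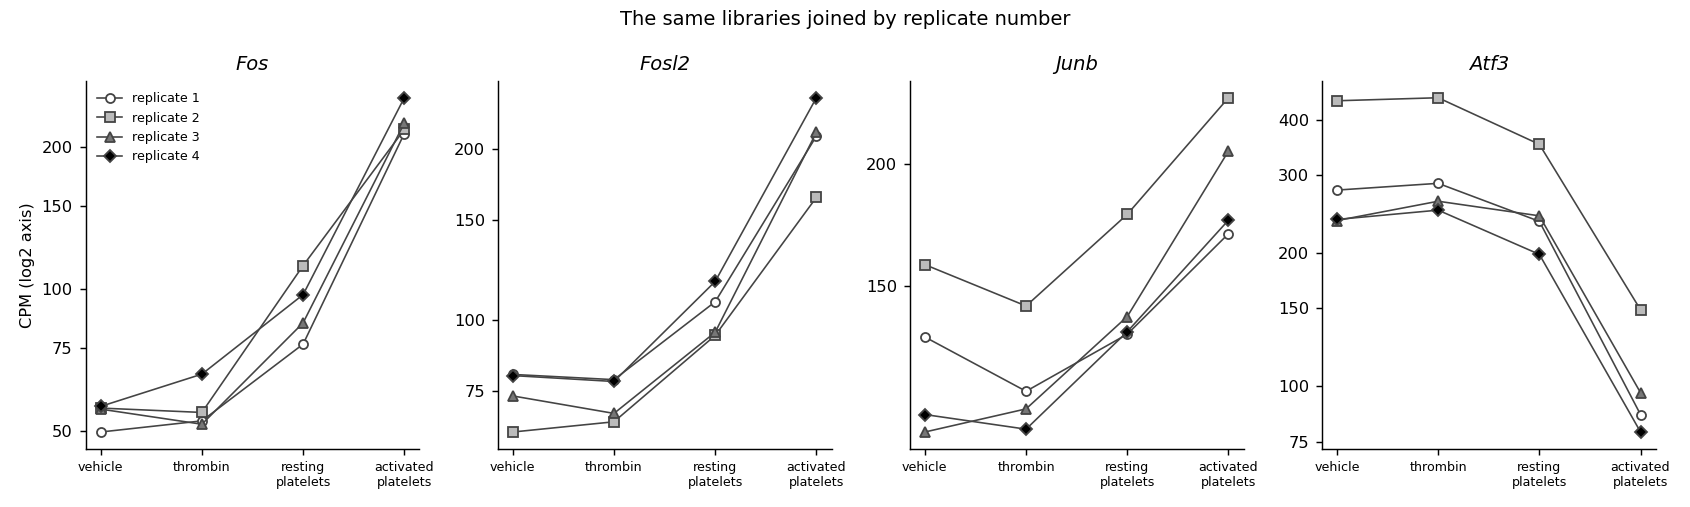
CPM on a log2 axis for Fos, Fosl2, Junb and Atf3, with the libraries of each replicate number joined across the 4 groups. Replicate 2 runs above the others for Junb and Atf3 and is lowest for Fosl2, while all 4 lines of Fos, Fosl2 and Junb end higher and those of Atf3 end lower with activated platelets than with vehicle.

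Maff (NCBI gene 17133, chr15:79230821-79243278, forward strand) encodes a small Maf protein, a bZIP partner without an activation domain of its own. It had 6.48, 4.5, 4.94 and 6.49 CPM in vehicle, 6.4, 6.6, 5.65 and 10.1 CPM with resting platelets, and 12.0, 8.94, 7.8 and 10.6 CPM with activated platelets. Activated platelet libraries lie above vehicle libraries without overlap, while resting platelet libraries overlap both. Maff rose 1.75-fold with activated platelets (log2 0.81 ± 0.18, edgeR adjusted p = 0.00308). With resting platelets the log2 fold change was 0.35 ± 0.18 (edgeR adjusted p = 0.304), which passed with the replicate block (adjusted p = 0.0263). Activated against resting platelets it was 0.46 (edgeR adjusted p = 0.0928), which passed with the block (adjusted p = 0.000817), without resting platelet replicate 4 (adjusted p = 0.0099) and without replicate number 4 (adjusted p = 0.0317).

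Batf (NCBI gene 53314, chr12:85733494-85755861, forward strand), whose small protein pairs with Jun proteins and IRF factors in immune cells, lies on the same chromosome as Fos. Its level was 3.61, 3.27, 3.11 and 3.57 CPM in vehicle, 2.12, 1.86, 2.4 and 3.48 CPM with resting platelets, and 2.79, 2.25, 3.52 and 4.15 CPM with activated platelets. All groups overlap, and all 4 replicate numbers are lower with resting platelets than with vehicle. The log2 fold change was -0.46 ± 0.21 with resting platelets (edgeR adjusted p = 0.253, and 0.0241 with the replicate block). With activated platelets it was -0.10 ± 0.21 (edgeR adjusted p = 0.785), with a 95% interval of -0.54 to 0.35.

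Thrombin alone was the comparison without a changed member. None of the 10 passed in edgeR, where 0.288% of all genes (45 of 15610) passed. None of the 10 had an unadjusted p under 0.05 in edgeR, where 1786 of the 15610 genes did. DESeq2, which gave an adjusted p for 8 of the 10, called 0 of them and 149 genes in all. With the replicate block 0 members passed too, against 8.23% of all genes. Fos had 52.6, 54.8, 51.7 and 66.0 CPM, Fosl2 had 78.4, 66.1, 68.4 and 77.9 CPM, and Atf3 had 287, 449, 262 and 250 CPM in thrombin libraries 1 to 4. For all 10 members the thrombin libraries overlap the vehicle libraries. The share of all genes that overlap in this comparison is not given here, so that count only describes the members. The 95% intervals of the log2 fold change were -0.17 to 0.27 for Fos, -0.27 to 0.21 for Fosl2, -0.37 to 0.21 for Junb and -0.47 to 0.60 for Atf3; these bounds are those of the fit without the replicate block. For Fosb, at 0.68, 0.924, 0.396 and 0.566 CPM, the interval was wide at -0.49 to 1.07.

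Activated platelets were also set against thrombin, the agent they had received. Here 5 members were higher (Fos, Fosb, Fosl2, Junb and Maff) and 1 was lower (Atf3), where 11.9% of all genes were higher and 13.5% lower. The differences were 4.05-fold for Fos (edgeR adjusted p = 2.33e-09), 3.49-fold for Fosb (adjusted p = 0.000389), 2.88-fold for Fosl2 (adjusted p = 8.55e-08) and 1.63-fold for Junb (adjusted p = 0.00119). Atf3 was 3.04-fold lower (edgeR adjusted p = 0.000237). Maff was 1.69-fold higher (edgeR adjusted p = 0.00482), a call lost without replicate number 1 (adjusted p = 0.0521). Jun had a log2 fold change of -0.15 (edgeR adjusted p = 0.117), which passed with the replicate block (adjusted p = 0.0074) and with the GC correction (adjusted p = 0.0337). This comparison shares the activated platelet libraries with the comparisons against vehicle and against resting platelets.

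Activated against resting platelets, 4 members rose (Fos, Fosb, Fosl2 and Junb) and 1 fell (Atf3), where 7.34% of all genes were higher and 8.49% lower. Without replicate number 1 the count of members past the threshold was 2, and 972 genes passed in place of 2472. An interaction was tested, which takes the difference between activated and resting platelets minus that between thrombin and vehicle and assumes 1 thrombin dose. Since thrombin also activated the platelets, its action on them and a changed action on macrophages cannot be told apart. The interaction was positive for 2 members and negative for 1, where it was positive for 4.56% and negative for 5.37% of all genes. Fos had an interaction of 1.25 ± 0.15 on the log2 scale (edgeR adjusted p = 0.000108) and Fosl2 of 1.046 ± 0.157 (adjusted p = 0.000783). For Atf3 it was -1.39 ± 0.36 (edgeR adjusted p = 0.0221), a call lost without vehicle replicate 4 (adjusted p = 0.0518), activated platelet replicate 1 (0.0517) or replicate numbers 1 (0.216), 3 (0.118) or 4 (0.0756), and with no filter (0.0899). The Atf3 interaction passed with the replicate block, with and without a GC correction. Junb (log2 0.50, edgeR adjusted p = 0.115) and Maff (log2 0.41, edgeR adjusted p = 0.349) passed only with the replicate block (adjusted p = 0.00086 and 0.0423), save that Junb also passed without replicate number 2 (adjusted p = 0.0312). Over all genes the interaction rose with transcript GC content (Spearman rho 0.382), and a GC correction lowered it to 0.295 for Junb and 0.266 for Maff. With that correction and the block together, Junb passed (adjusted p = 0.00121) and Maff did not (adjusted p = 0.207). With the block 5 members passed, against 29.1% of all genes.

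Summed over a family, the transcripts that can supply Fos partners grew more than those that can supply Jun partners. The Fos family sum was 39.7 ± 1.68 CPM per kilobase (SD, n = 4) in vehicle and 41.2 ± 4.35 in thrombin libraries. It reached 62.4 ± 7.99 CPM per kilobase where platelets were at rest and 143 ± 13.9 where they were activated. The Jun family sum was 143 ± 18.5 in vehicle, 147 ± 12.9 with resting platelets and 174 ± 16.7 CPM per kilobase with activated platelets. The ratio of Fos to Jun family sums ranged from 0.231 to 0.320 in vehicle, 0.259 to 0.381 in thrombin, 0.395 to 0.478 in resting platelet and 0.664 to 1.01 in activated platelet libraries. The groups with platelets do not overlap each other or the groups without platelets in this ratio. Its mean was 0.283 ± 0.044 in vehicle and 0.834 ± 0.143 with activated platelets. These sums are descriptions with no test, and transcript sums do not measure protein.

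Within the Fos family, Fos held 65.0% ± 2.97 of the summed level in vehicle and 75.6% ± 2.57 with activated platelets, while Fosl1 went from 8.28% to 3.51%. Within the Jun family, Junb held 48.2% ± 2.64 in vehicle, 54.2% ± 2.79 with resting platelets and 61.1% ± 3.51 with activated platelets. The share of Jun was 24% in vehicle and 17.5% with activated platelets, and that of Jund was 27.8% and 21.4%. Per kilobase, Atf3 stood at 5.85 ± 1.84 times the level of Fos in vehicle libraries and at 0.487 ± 0.170 times with activated platelets, so the order of this activator and this repressor differed between the groups.

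**Figure D5:**
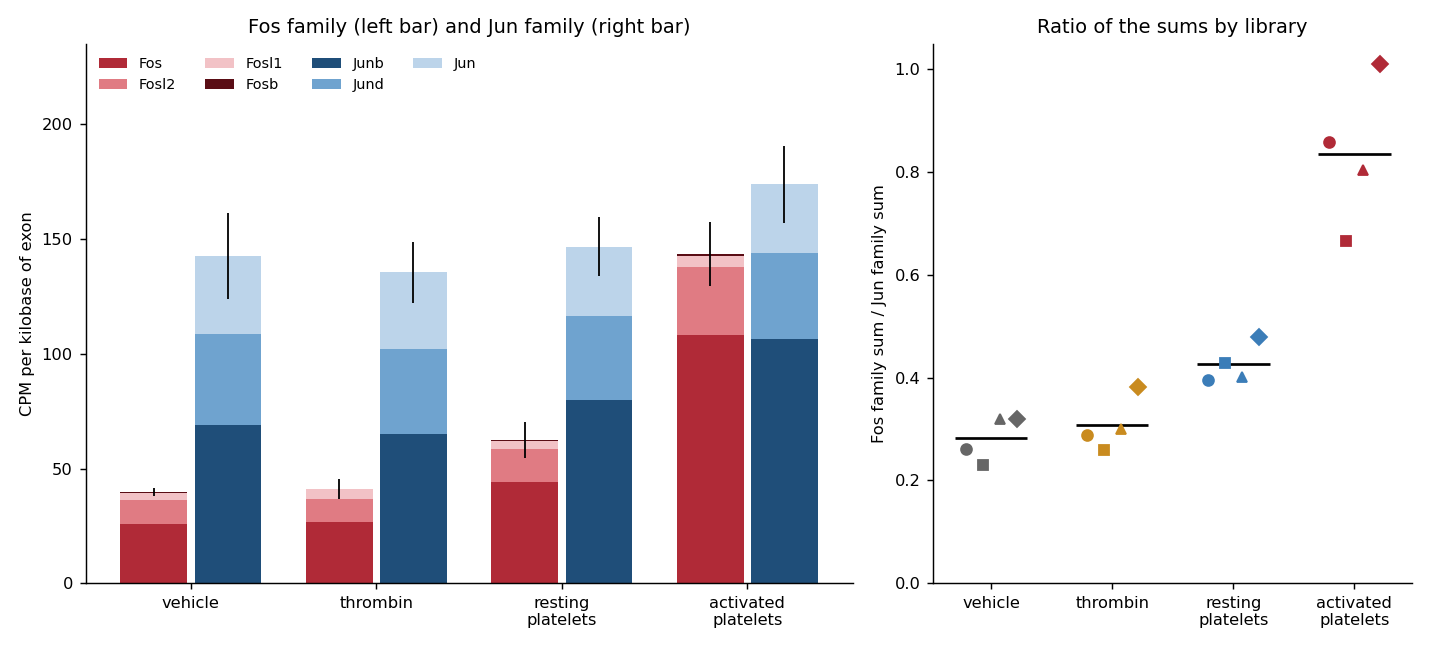
Left, group means of CPM per kilobase stacked over the 4 Fos family (left bar) and 3 Jun family genes (right bar), with the SD of the sum over 4 libraries; right, the ratio of the sums in each library, with shapes for replicates 1 to 4 and the mean as a line. The Fos family sum goes from a mean of 39.7 in vehicle to 143 with activated platelets, and the ratio from 0.283 to 0.834.

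The members did not vary as a block across the 16 libraries, which share group differences and replicate numbers, so the following Pearson coefficients on log2 CPM are descriptions. Fos went with Fosl2 (r = 0.96), Fosb (0.87), Junb (0.82) and Maff (0.81), and against Atf3 (-0.85). Fosl1 went with Fos less closely (0.59) and Jun went against it (-0.60), while Batf and Jund hardly followed Fos (-0.07 and -0.11). Among 10536 genes with at least 5 CPM in the highest group, those most like Fos were Sipa1l2 (r = 0.992), Carmil1 (0.990) and Tgm2 (0.986). Tgm2, which encodes transglutaminase 2, had 62.7 CPM in vehicle and 633 CPM with activated platelets. The genes most like Fosb were Ppp1r13l (0.942), Smad7 (0.939) and Agpat4 (0.932), and those most like Atf3 were Dnmt3a (0.987), Clec12a (0.985) and Ptchd1 (0.985). With group means removed, the coefficients were 0.832, 0.607 and 0.613 for the 3 genes of Fos, 0.779, 0.674 and 0.654 for those of Fosb, and 0.969, 0.948 and 0.946 for those of Atf3, whose level in replicate 2 is high in all 4 groups. These genes were picked by the coefficient over the same libraries.

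Other bZIP genes outside the family moved in both directions. Of 35 tested, 10 rose and 8 fell with activated platelets, where 12.2% of all genes rose and 13.6% fell. Their median log2 fold change was 0.02 (-0.00397 over all genes). Cebpb, a macrophage factor of the C/EBP family, rose 2.37-fold (edgeR adjusted p = 2.23e-06), Crem, a cAMP-responsive factor, rose 2.26-fold (edgeR adjusted p = 6.01e-07), and Nfil3 rose 1.68-fold. Batf3, a relative of Batf, fell 4.89-fold, Dbp 1.98-fold and Atf6 1.37-fold. With resting platelets 3 rose (Bach2 1.5-fold, Creb5 1.25-fold and Nfil3 1.22-fold) and 2 fell (Batf3 1.75-fold and Dbp 1.41-fold), where 2.07% of all genes rose and 1.32% fell. With the replicate block 8 rose and 6 fell, where 21.5% of all genes passed. With thrombin alone none of the 35 changed without the block (0.288% of all genes), and with it 1 rose and 3 fell (8.23% of all genes).

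Genes of the MAP kinase cascades and the factors they act on, which lie upstream of AP-1 genes, were tested as a list of 33. With activated platelets 10 rose and 8 fell, where 12.2% of all genes rose and 13.6% fell. The median log2 fold change of the list was 0.01. Elk3, an ETS factor that works with serum response factor, rose 1.98-fold (edgeR adjusted p = 3.72e-08), and Map2k3, a kinase of p38, rose 1.57-fold. Map2k6, the other main kinase of p38, fell 3.88-fold, and Mapk14, which encodes p38 alpha itself, fell 1.27-fold. With resting platelets Elk3 rose 1.28-fold (edgeR adjusted p = 0.011) and Map2k6 fell 2.5-fold (edgeR adjusted p = 5.46e-05), and with the block 6 rose and 7 fell, beside 21.5% of all genes. Of 19 negative regulators and immediate early genes that accompany MAP kinase signalling, 8 rose and 3 fell with activated platelets (10 and 5 with the block, where 42.5% of all genes passed), with a median log2 fold change of 0.31. Dusp5, a phosphatase that inactivates ERK, rose 4.37-fold (edgeR adjusted p = 5.41e-07), Ier3 2.23-fold and Ier2 1.64-fold, while Spry1 fell 2.51-fold, Spred1 1.52-fold and Zfp36l1 1.36-fold. With resting platelets none of the 19 passed in the fit without the block, whereas 9 rose and 0 fell with it, where 21.5% of all genes passed.

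Genes commonly described as AP-1 targets were a list of 32, of which 29 were tested. With activated platelets 13 rose and 2 fell (18 and 6 with the replicate block, where 42.5% of all genes passed), with a median log2 fold change of 0.23. With resting platelets 5 rose and 0 fell (14 and 2 with the block, where 21.5% of all genes passed), with a median of 0.19. Ptgs2, which encodes cyclooxygenase-2, had 15.7 ± 1.14 CPM in vehicle, 49.9 ± 13.8 CPM with resting platelets and 148 ± 44.8 CPM with activated platelets, a rise of 3.17-fold and of 9.42-fold. Vegfa, the vascular growth factor gene, rose 1.95-fold with resting and 7.22-fold with activated platelets, and Il1b, which encodes interleukin-1 beta, rose 7.27-fold with activated platelets. Mt1, a metallothionein gene, fell 3.12-fold and Ccnd1, the gene of cyclin D1, fell 2.05-fold with activated platelets. Earlier results of these data were known when the lists were chosen, so their counts are descriptions beside the shares over all genes, which without the block were 12.2% higher and 13.6% lower with activated platelets and 2.07% and 1.32% with resting platelets.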

How the data were processed

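Poly(A) libraries were prepared with a strand-preserving kit, per the labels' protocols. The authors deposited estimated counts per gene without normalization, and gene coordinates in that table are those of RefSeq for GRCm39. The submitters' processing notes name cutadapt 2.5, featureCounts 1.6.4 (Subread) and STAR 2.7.2b, with the builds GRCm39 and mm10 and no roles. How strand and multimapping reads were counted is not given in the sources used here. Of values above 0, 25.5% were not whole. The design had assumed whole counts, and all values were rounded.

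Genes were filtered with filterByExpr, scaled by TMM and tested by robust quasi-likelihood in edgeR 4.0.16 (R 4.3.3) on all 16 libraries as 4 groups. P-values are two-sided and Benjamini-Hochberg adjusted over 15610 genes, and "rose" and "fell" are used only for an adjusted p under 0.05. CPM use TMM-scaled library sizes. The edgeR fit without the block was tested on simulated counts with equal scatter for all genes and no replicate effect. Replicate effects were thus not covered by it. Samples were grouped by title. The members and lists were chosen with earlier results of these data known. Named are all members, up to 3 rising and 3 falling genes of each list with the smallest p against vehicle for either platelet group, and the 3 genes most like the 3 members that changed most. Ddx3y and the marker genes were named after their values were seen. Some genes are not reported here.

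After removing group means, the 24 correlations between libraries of the same number lay between 0.29 and 0.617 and the others between -0.436 and 0.253. The numbers were therefore taken to pair libraries. No label explains the numbers, and this pairing rests on the data. Blocked values stand beside a result where they change its call or move a count by over 1.5 times, and beside some calls lost elsewhere. Every member called without the block was also called with it, in each comparison. Alternatives were RLE and upper quartile scaling, no filter, DESeq2 1.42.0, voom of limma 3.58.1, only the groups compared, the block and each library or replicate number left out. A GC correction, alone and with the block, and the platelet list without 2 genes were added after seeing the data.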

Additional observations from a re-analysis of the deposited data

Results flagged for a closer look

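The Fos level of vehicle replicate 1 was 49.8 CPM, far below the nearest library of its group (55.7 CPM) relative to the range of the group. The Junb level of resting platelet replicate 2 was 178 CPM, far above the nearest library (140 CPM). Chance alone singles out about 1 in 20 independent groups in this way, and 2 of 40 were found. These groups share replicate numbers and are not independent. Junb in replicate 2 lay above its group mean, and Fos in replicate 1 below it, in all 4 groups. By the interaction test of edgeR, activated minus resting platelets differed from thrombin minus vehicle for Fos (log2 1.25), Fosl2 (log2 1.046) and Atf3 (log2 -1.39). Their adjusted p-values stand in the report. The test assumes 1 thrombin dose and cannot tell thrombin acting on the platelets from a changed action on the macrophages.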

How the results depend on the processing

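Of 1326 alternative values of the single members, 72 changed sign, and no member called in the comparison concerned was among them. Of the changed values, 1 passed the threshold itself, Jund in the interaction with the GC correction and the block (adjusted p = 0.0258). With the GC correction, thrombin against vehicle gave log2 0.00261 for Fosl2, 0.0326 for Jun, 0.0546 for Junb and 0.0702 for Jund (0.00506, 0.0319, 0.0563 and 0.0715 with the replicate block added). For Jund it gave 0.0605 with resting platelets (0.0613 with the block). Activated against resting platelets it gave -0.0461 for Jun and -0.0663 for Jund (-0.0491 and -0.0653 with the block), and voom gave -0.000618 for Jun. Activated platelets against thrombin it gave -0.0760 for Jund (-0.0755 with the block), and the interaction was -0.0787 for Jun and -0.136 for Jund (-0.0809 and -0.137 with the block). Activated platelets against thrombin, Batf had 0.000559 with RLE, 0.00276 with upper quartile scaling, 0.00221 with no filter, 0.000492 with DESeq2 and 0.00688 with only the groups compared.

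Leaving out 1 library or replicate number moved log2 fold changes of thrombin against vehicle from -0.0442 to 0.0971 for Fos, -0.0630 to 0.575 for Fosb, -0.0973 to 0.0130 for Fosl2, -0.178 to 0.0382 for Junb, -0.164 to 0.315 for Atf3, -0.0392 to 0.123 for Maff and -0.235 to 0.0480 for Batf. With resting platelets the values moved from -0.0109 to 0.236 for Fosl1 and -0.403 to 0.0366 for Atf3, and with activated platelets from -0.247 to 0.0370 for Batf. Activated against resting platelets they moved from -0.0379 to 0.0739 for Jun and -0.0303 to 0.0478 for Jund. Activated platelets against thrombin they moved from -0.0533 to 0.0666 for Jund and -0.150 to 0.129 for Batf. The interaction moved from -0.0511 to 0.514 for Fosl1 and -0.00236 to 0.105 for Jun.

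Genes called for thrombin numbered 1285 with the replicate block, 149 with DESeq2, 11 with only the groups compared, 16 with the GC correction, 389 with it and the block, and 4 to 27 with samples left out, against 45. For resting platelets, 529 genes became 335 with no filter (1 member), 3360 with the block (8 members), 923 with DESeq2, 188 with only the groups compared, 292 with the GC correction, 2732 with it and the block (7 members), and 58 to 550 (1 to 2 members) with samples left out. With the block, or with the block and the GC correction, 6635 and 6863 genes were called for activated platelets against vehicle, 5391 and 5341 against resting platelets, and 6499 and 6678 against thrombin. With samples left out these counts ranged from 2522 to 3727, from 972 to 2256 (2 to 6 members) and from 2422 to 3798, and in each the count was lowest without replicate number 1. The interaction had 4535 genes and 5 members with the block, 880 genes with the GC correction, 3562 genes and 5 members with both, and 264 to 1672 genes with samples left out. Without division by length the Fos to Jun family ratio was 0.391 in vehicle, 0.414 in thrombin, 0.584 in resting platelet and 1.13 in activated platelet libraries. The blocked fit changed no member's call other than those named in the report, and the cause of these changes was not tested.

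The precision is limited by 4 libraries a group and by low counts of Fosb, Batf, Maff and Fosl1. Over all genes, log2 fold change also went with transcript GC content (Spearman rho -0.443 for thrombin, -0.340 for resting and -0.051 for activated platelets). Such a trend can shift the members together, since their transcript GC, from 51.9% (Fos) to 67.1% (Jund), always exceeded the median of 49.7% over tested genes.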
